A study of Mus musculus with 38 samples.

Results

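Lipocalin 2 (Lcn2) was followed as 1 of 10547 gene targets in liver sections of mice profiled with the GeoMx Digital Spatial Profiler, in which light releases the barcodes of hybridised probes from 1 chosen segment of tissue at a time. The gene was selected on its pattern in these data, a rise with the diet and a higher level in cholangiocyte segments, so its own levels and fold changes are given as a description, with no p-value. WT mice and mice in which the myeloid cells lack Trail (Trail Δmye, Trail.mye in the labels, a floxed allele deleted by a Cre driven from the Lyz2 locus, which is active in macrophages and neutrophils alike) were on a C57BL/6 background and were 6 to 8 weeks old and matched for age and sex. Both genotypes received rounds of a control (CON) diet or of one with DDC, which blocks bile ducts with porphyrin plugs. Each round lasted 5 days, with 3 days of chow between rounds, over 21 days, and the mice were killed on day 22. The 38 segments lay in 23 regions of interest (ROIs) and were defined by staining for pan-cytokeratin (PanCK+, cholangiocytes) or IBA1 (macrophages), and 15 periportal ROIs held both a PanCK+ and an IBA1+ segment.

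In the order WT CON, WT DDC, Trail Δmye CON and Trail Δmye DDC, the PanCK+ class held 3, 4, 4 and 5 segments, the periportal IBA1+ class 2, 4, 4 and 5, and the parenchymal IBA1+ class 1, 2, 2 and 2. No label ties a segment to a mouse. Segments may share an animal, and every p-value over segments is therefore too small to stand for animals. Total counts per segment ran from 20319 to 836971 and moved with genotype, since the periportal segments of DDC-fed Trail Δmye mice had 158220 or more and those of WT mice at most 61665. No value lies below 1 count, and no source says if a 1 can be a raised 0. The labelled classes were checked against markers. In all 15 ROIs with both segments, Krt19, Epcam and Spp1 had a higher Q3-normalized count in the PanCK+ segment and C1qa, a complement gene of macrophages, a lower one. Clec4f, a gene of resident Kupffer cells, was lower there in all but WT DDC ROIs 007 and 011, at 2.35 and 2.50 times the IBA1+ level. It held 1 to 7 counts in WT DDC periportal IBA1+ segments. Its mean in this class was 163 on CON and 15.3 on DDC in WT mice, and 110 and 9.27 in Trail Δmye mice. Q3 normalization scales every segment to the same 75th percentile of its counts, here 10.5, and levels below are Q3-normalized counts unless a share is named. 1 ROI stood apart. Both segments of ROI 035 (Trail Δmye DDC) had a negative probe, which matches no mouse transcript, at 5.66 and 5.51, against 1.40 to 2.62 in the other segments of their groups. Group means of Lcn2 that rest on them are given with and without them. Pooled shares and fits include them unless stated.

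Lcn2 encodes a small secreted carrier that binds bacterial siderophores and so keeps iron from bacteria. Injured or inflamed epithelia, including those of liver, kidney and gut, switch it on through receptors for interleukin 1, interleukin 17 and other cytokines and the transcription factors of the NF-kB, STAT and C/EBP families, and neutrophils store the protein in their granules. In the liver, hepatocytes secrete it as an acute phase protein. The gene lies on the minus strand of chromosome 2, at chr2:32384637-32387739 (RefSeq, GRCm38.p6, gene ID 16819). The sequence just before its start is shown because factors of these families are known to act on the Lcn2 promoter. It covers the 250 bases upstream, chr2:32387740-32387989 on the minus strand, written 5′ to 3′ with the only match to a C/EBP motif in capitals.

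Lcn2 promoter: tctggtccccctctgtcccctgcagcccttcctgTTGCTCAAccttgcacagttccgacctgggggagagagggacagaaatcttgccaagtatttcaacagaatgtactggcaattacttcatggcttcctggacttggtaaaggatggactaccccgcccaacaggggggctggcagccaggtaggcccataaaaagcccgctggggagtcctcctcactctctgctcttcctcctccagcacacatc

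4 motifs were searched on both strands of this window. The C/EBP motif TTNNGCAA matched once, on the opposite strand, at bases 216 to 209 before the start, and 9.56% of 32851 RefSeq promoter windows of this length held a match. The NF-kB consensus, the STAT motif TTCNNNGAA and TATAAA had no match in these letters, and were found in 7.25%, 7.02% and 12.4% of the windows. A match is a description of the letters and no evidence of binding.

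In PanCK+ segments Lcn2 was near the floor of the assay on the control diet and far above it on DDC. The 3 WT CON segments held 4, 1 and 1 counts of Lcn2, which are Q3-normalized counts of 14.0, 5.25 and 5.25. The 4 WT DDC segments were at 168, 269, 231 and 296. All 4 DDC segments were high, and the groups did not overlap. The 4 Trail Δmye CON segments were at 7.00, 23.6, 15.8 and 16.8, from 2, 9, 6 and 8 counts. The 5 Trail Δmye DDC segments were at 257, 191, 214, 86.1 and 168, from 273 to 656 counts, and ROI 035 was the lowest. These 2 groups did not overlap either.

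The fitted log2 fold change of DDC over CON in PanCK+ segments was 4.73 (standard error 0.57, n = 4 and 3) in WT mice and 3.48 (standard error 0.40, n = 5 and 4) in Trail Δmye mice, which are 26.6-fold and 11.2-fold. The mean Q3-normalized count went from 8.17 ± 5.05 (SD, n = 3) to 241 ± 55.5 (SD, n = 4) in WT mice and from 15.8 ± 6.83 (SD, n = 4) to 183 ± 63.4 (SD, n = 5) in Trail Δmye mice. Without ROI 035 the last mean was 207 ± 37.7 (SD, n = 4). Since 2 of the 3 WT control segments sat at 1 count, the counts were also pooled. Lcn2 made up 26.2 times more of all counts on DDC in WT PanCK+ segments, with an exact 95% interval of 11.9 to 71.8, and 8.43 times more in Trail Δmye PanCK+ segments (5.70 to 13.1). Such intervals cover counting error only, and ROI 035 was kept in the Trail Δmye share. Leaving out WT CON ROI 001, the 1 control segment with 4 counts, moved the fitted WT value to 5.48.

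**Figure D1:**
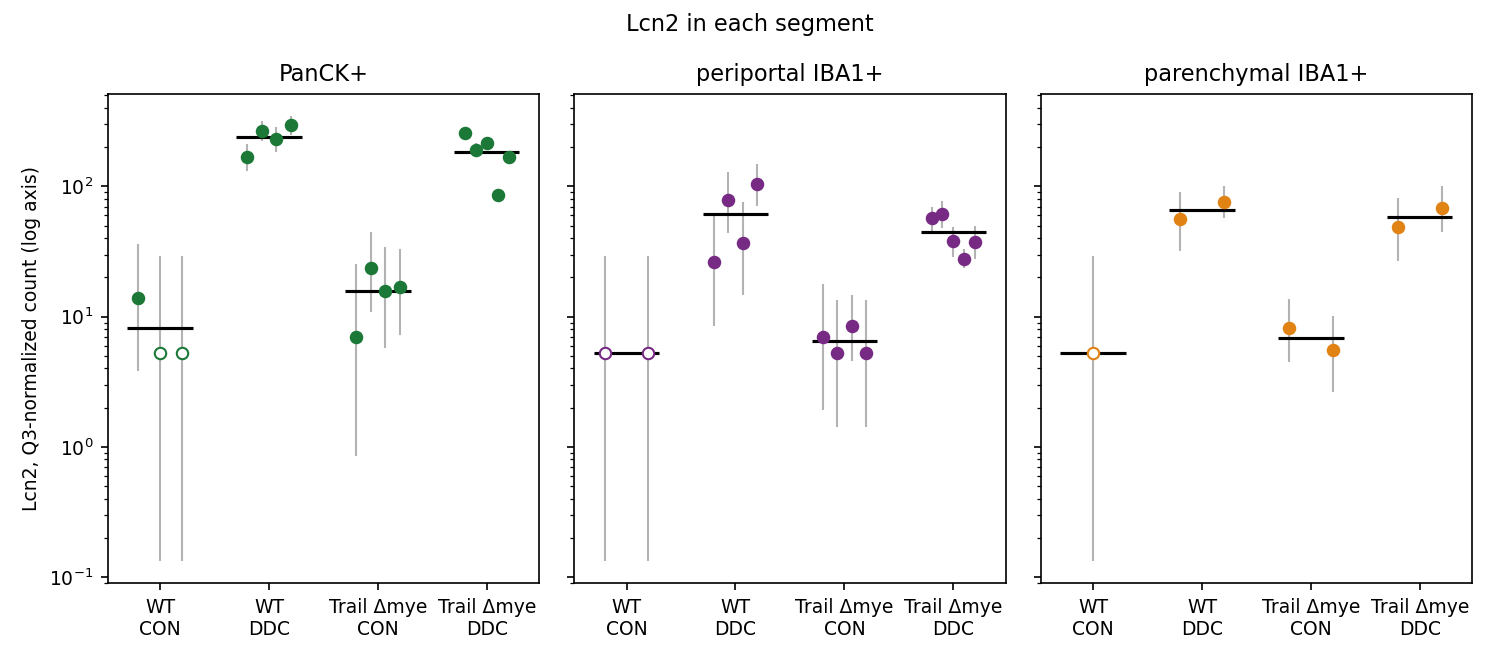
Lcn2 in each of the 38 segments, as Q3-normalized count on a log axis, by segment class, genotype and diet; grey lines are exact 95% Poisson intervals of the count, black bars are group means, and open circles are segments at 1 count. Every DDC segment (26.3 or more) lies above every CON segment (23.6 or less).

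The periportal IBA1+ segments showed the same order of diets at lower levels. Both WT CON segments held 1 count (5.25). The 4 WT DDC segments were at 26.3, 78.8, 36.8 and 105, from 5, 15, 7 and 30 counts. The Trail Δmye CON segments were at 7.00, 5.25, 8.53 and 5.25, and the Trail Δmye DDC segments at 56.8, 61.4, 38.1, 27.9 and 37.5, with ROI 035 again the lowest. DDC and CON segments did not overlap in either genotype. The WT DDC segments spread more widely than the Trail Δmye segments, and their counts were lower.

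The group means were 61.7 ± 36.7 (SD, n = 4) in WT DDC and 44.4 ± 14.2 (SD, n = 5) in Trail Δmye DDC periportal IBA1+ segments, the latter 48.5 ± 12.5 (SD, n = 4) without ROI 035. The fitted log2 fold change of DDC over CON was 2.67 (standard error 0.37, n = 5 and 4) in Trail Δmye mice. In WT mice it was 3.58 (standard error 0.82, n = 4 and 2), and this value depends on the 2 control counts. The ratio of pooled shares was 17.4 there, with an exact 95% interval of 4.61 to 147, and a control floor of 3 counts per segment in place of 1 would make the ratio of means 3.92.

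In the parenchyma, Lcn2 was at 5.25 in the 1 WT CON segment (1 count), at 56.0 and 76.5 in the 2 WT DDC segments, at 8.17 and 5.53 in Trail Δmye CON and at 49.0 and 68.3 in Trail Δmye DDC. The DDC segments again lay above the CON segments, with a ratio of means of 8.56 in Trail Δmye mice. Away from the portal tract the level on DDC was close to that of periportal IBA1+ segments. Fitted over the 22 IBA1+ segments, the log2 difference of periportal over parenchymal was -0.21 (standard error 0.24). In these parenchymal DDC segments the cholangiocyte keratin Krt19 held 1 or 2 counts and Epcam, an adhesion molecule of the same cells, 1 to 4 counts. Spp1, also a marker of these cells, was at 63.0 ± 59.4 (SD, n = 2; 6 and 70 counts) in WT DDC and 24.1 ± 14.2 (SD, n = 2; 4 and 13 counts) in Trail Δmye DDC parenchymal segments, against 5.25 and a mean of 2.55 on CON. The 10 cholangiocyte markers summed to 52.5 to 126 and 60.4 to 63.0 on DDC and to 57.8 and 38.1 to 39.1 on CON. The 9 hepatocyte markers summed to 10350 and 13858 in WT DDC and 3813 and 5562 in Trail Δmye DDC parenchymal segments, against 1125 to 4779 in periportal IBA1+ segments on DDC. The part of cholangiocyte or hepatocyte RNA in the Lcn2 level was not tested.

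Across the 12 groups the mean level fell in the order WT DDC PanCK+ (241), Trail Δmye DDC PanCK+ (183), WT DDC parenchymal (66.3), WT DDC periportal IBA1+ (61.7), Trail Δmye DDC parenchymal (58.6), Trail Δmye DDC periportal IBA1+ (44.4), Trail Δmye CON PanCK+ (15.8), WT CON PanCK+ (8.17), Trail Δmye CON parenchymal (6.85), Trail Δmye CON periportal IBA1+ (6.51) and the WT CON IBA1+ groups (5.25). Neighbours in this order had separate ranges between Trail Δmye DDC PanCK+ and WT DDC parenchymal segments, and between Trail Δmye DDC periportal IBA1+ and Trail Δmye CON PanCK+ segments. All other neighbours overlapped or met at the floor. As a share of all counts the diets met: the highest CON segment had 24.2 and the lowest DDC segment 23.2 counts of Lcn2 per 100000, although no DDC segment fell to the highest CON segment of its own class.

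Set against the negative probe, Lcn2 on the control diet was at a low multiple of its count in most segments. The ratio was 0.873 to 0.997 in the 5 segments at 1 count. The probe was itself at 1.00 to 1.15 counts there, so the ratio was set by the floor and cannot measure background. It was 3.75 in the WT CON PanCK+ segment of ROI 001 and 1.58 to 2.73 in Trail Δmye CON periportal IBA1+ segments. In Trail Δmye CON PanCK+ segments the ratio ran from 1.58 to 7.21. On DDC it was 61.6 to 113 in WT PanCK+ segments and 4.81 to 26.1 in WT periportal IBA1+ segments. In Trail Δmye PanCK+ segments on DDC it was 88.4 to 153 outside ROI 035 and 15.2 within it.

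Between genotypes the levels of Lcn2 overlapped in both periportal classes. On DDC the fitted log2 fold change of Trail Δmye over WT was -0.39 (standard error 0.29) in PanCK+ segments and -0.55 (standard error 0.32) in periportal IBA1+ segments. As a share of pooled counts, Lcn2 on DDC was 0.629 times as high in Trail Δmye as in WT PanCK+ segments (exact interval 0.567 to 0.699) and 0.570 times in periportal IBA1+ segments (0.431 to 0.766). These intervals leave out the spread between segments, and the deeper segments weigh more in the pooled share. Both segments of ROI 035, at 836971 and 568720 counts the deepest of their groups, were kept in these shares. No share without them was computed. On the control diet the value was 0.86 (standard error 0.75) in PanCK+ segments, where the count-based ratio was 1.95 with an exact interval of 0.782 to 5.82. The difference of the diet effects, Trail Δmye minus WT, was -1.25 (standard error 0.80) in PanCK+ and -0.91 (standard error 1.10) in periportal IBA1+ segments. Both rest on the few counts of the WT controls, and the second changed sign, to 0.92, with segments thinned to 1 depth.

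Within single ROIs, Lcn2 was higher in the PanCK+ than in the IBA1+ segment in 12 of 15 ROIs and equal in the other 3. The ties were the 2 WT CON ROIs with 1 count on both sides and Trail Δmye CON ROI 026 at 7.00 on both sides. In the 9 DDC ROIs the PanCK+ segment held 2.82 to 6.40 times the Lcn2 of the IBA1+ segment beside it, with a median of 4.48. The mean log2 difference was 2.15 ± 0.61 (SD, n = 4) in WT DDC and 2.02 ± 0.38 (SD, n = 5) in Trail Δmye DDC ROIs, a difference smaller than the spread within either group. It was 1.18 ± 0.95 (SD, n = 4) in Trail Δmye CON. With ROI as a block, the fitted log2 fold change of PanCK+ over IBA1+ was 1.89 (standard error 0.18) over 15 ROIs.

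**Figure D2:**
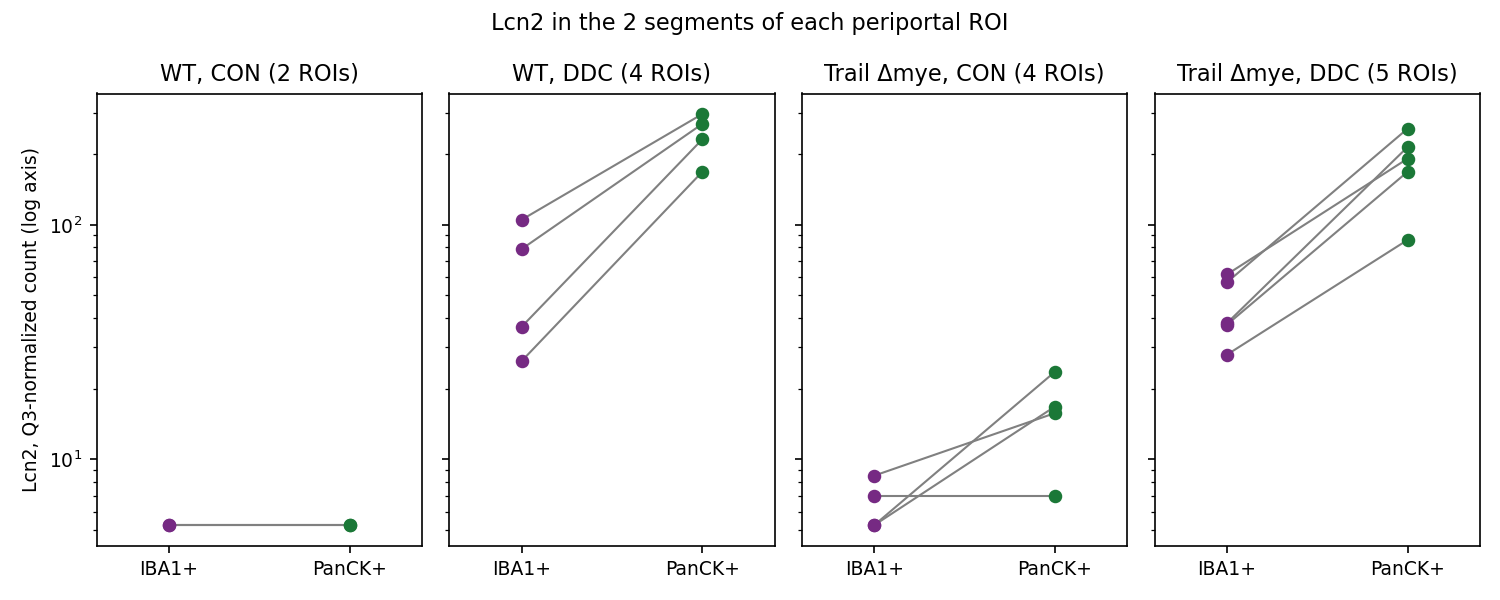
Lcn2 as Q3-normalized count (log axis) in the IBA1+ and PanCK+ segments of the 15 periportal ROIs that held both, joined by a line per ROI and split by genotype and diet; the 2 WT CON ROIs coincide at 5.25. In all 9 DDC ROIs the PanCK+ segment is the higher, by 2.82 to 6.40 times.

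The difference within a ROI was smaller for Lcn2 than for genes that mark cholangiocytes. On DDC, Krt19 was 4.23 to 16.7 times higher in the PanCK+ segment (median 8.40), Epcam 4.55 to 40.8 times (median 10.1) and the matrix glycoprotein Spp1 4.20 to 14.2 times (median 6.86). The fold of Lcn2 was below that of Krt19 and of Spp1 in 9 of 9 DDC ROIs and below that of Epcam in 8 of 9. Other cell types differed the other way. C1qa was at 0.137 to 0.50 and the collagen gene Col1a1 at 0.124 to 0.471 times the IBA1+ level. Albumin (Alb) lay on both sides of equality, from 0.327 to 1.81, and so did Clec4f, from 0.147 to 2.50. Segments are areas of tissue and can hold parts of neighbouring cells, and fewer cells of a type cannot be told apart here from less RNA per cell. The summed level of the 10 cholangiocyte markers in periportal IBA1+ segments was 40.7 to 57.8 on CON and 117 to 378 on DDC. Most of that rise was Spp1, whose mean went from 5.25 to 235 in WT and from 7.93 to 145 in Trail Δmye mice. That of Krt19 went from 5.25 to 6.57 and from 6.35 to 6.26. That of Epcam went from 7.88 to 8.75 and from 4.16 to 9.71. In WT CON segments 8 of the 10 markers were at 1 count throughout. The part of cholangiocyte RNA in the rise of Lcn2 in these segments was not tested.

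**Figure D3:**
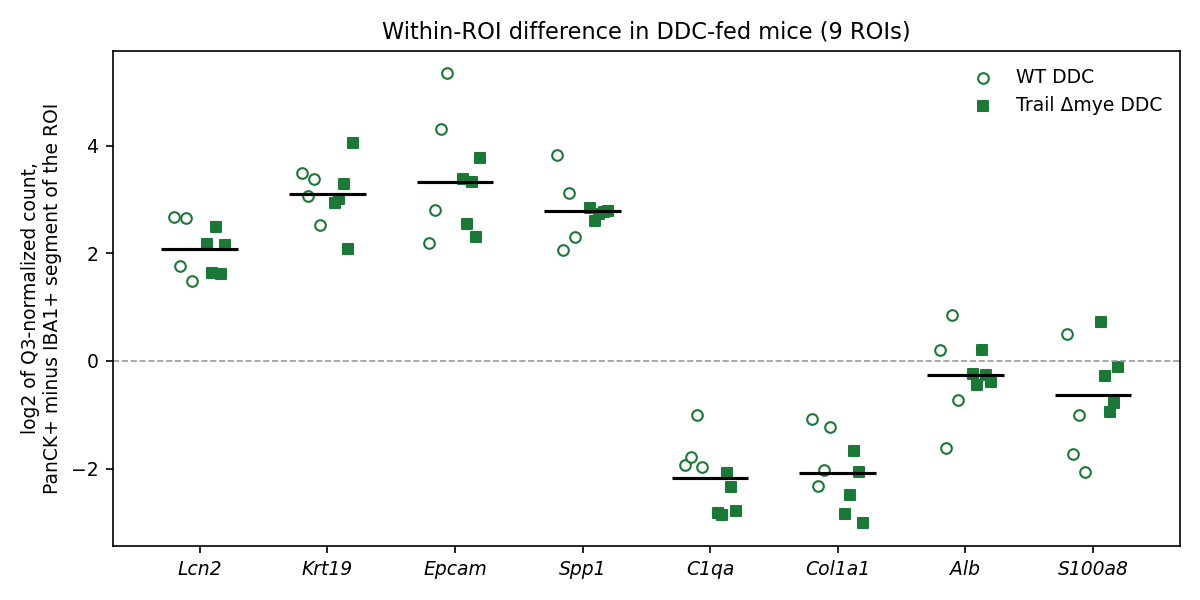
Log2 difference of the Q3-normalized count between the PanCK+ and IBA1+ segment of each of the 9 DDC ROIs, for Lcn2 and markers of cholangiocytes (Krt19, Epcam, Spp1), macrophages (C1qa), fibroblasts (Col1a1), hepatocytes (Alb) and neutrophils (S100a8); bars are means. Lcn2 averages 2.08, below Krt19 at 3.10 and Epcam at 3.33.

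Neutrophils are the other known store of Lcn2, and 5 of the 12 listed neutrophil markers were among the targets. In WT PanCK+ segments these 5 genes held 1 to 3 counts each on CON and 1 to 5 on DDC. Their summed levels there, 31.5 to 35.0 and 14.7 to 27.2, follow the worth of 1 count in each segment, and no order of diets can be read from them. Ly6g, a surface protein of neutrophils, held 1 count in every periportal segment of WT DDC mice. In Trail Δmye mice the sum was higher on DDC in PanCK+ segments, 37.0 to 73.5 against 18.4 to 35.0. In periportal IBA1+ segments it was 44.3 to 68.0 against 25.6 to 44.6, with a small overlap. Not all 5 genes rose. The mean of Ly6g went from 8.15 to 3.62 in periportal IBA1+ and from 3.76 to 3.62 in PanCK+ segments. That of Retnlg went from 5.53 to 5.01 and from 6.30 to 3.93. The means of S100a8, S100a9 and Csf3r were higher on DDC in both classes. S100a8, a calcium-binding protein of neutrophils, rose in Trail Δmye periportal IBA1+ segments from 2.41 ± 1.16 (SD, n = 4) to 15.3 ± 2.84 (SD, n = 5; log2 fold change 2.65, adjusted p = 2.28e-07). Within the 9 DDC ROIs, S100a8 was higher in the PanCK+ segment in 2. Its partner S100a9 was higher there in 4 and tied in 1, with a median fold of 1.0, and in Trail Δmye DDC mice it averaged 18.1 ± 7.30 (SD, n = 5) in PanCK+ and 18.0 ± 5.93 (SD, n = 5) in periportal IBA1+ segments. The part of neutrophil RNA in the Lcn2 level was not tested.

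The genes of the wider pathway were read from lists of inducing receptors, transcription factors, other genes that inflamed epithelia switch on, acute phase proteins, iron handling, partners of Lcn2 and other lipocalins. Of 130 listed genes, 97 were among the targets. The lists were chosen with earlier results of these data known, so counts of calls beside the share of all genes are a description. In PanCK+ segments, 4 of these 97 were called higher and 2 lower on DDC in WT mice (adjusted p under 0.05 over all genes), against 0.493% and 0.417% of all 10547 genes. In Trail Δmye mice 15 were called higher and 1 lower, against 1.43% and 0.664% of all genes. The median log2 fold change of the 97 was 0.39 in WT and 0.57 in Trail Δmye mice, beside -0.17 and 0.18 over all genes. The count in WT mice fell to 3 in all without CON ROI 001, CON ROI 003 or DDC ROI 013 and rose to 10 without ROI 035, with which the fit shares its spread. In Trail Δmye mice it fell from 16 to 9 without CON ROI 028 or 029.

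Of the 18 genes of inflamed epithelia, 3 rose and 1 fell in WT PanCK+ segments, and 6 rose in those of Trail Δmye mice, where none fell even at an unadjusted p under 0.05. DESeq2 called 2 of the 18 higher in Trail Δmye and 4 in WT mice, and limma 6 and 5. Ccl2, which draws monocytes, had a log2 fold change of 3.19 in WT mice (standard error 0.75, adjusted p = 0.00841), where all 3 controls held 1 count, and 3.90 (standard error 0.55, adjusted p = 1.55e-07) in Trail Δmye mice, from 3.37 ± 1.38 (SD, n = 4) to 50.8 ± 19.5 (SD, n = 5). Vcam1, an adhesion molecule for leukocytes, rose by 2.43 on the log2 scale in WT mice (adjusted p = 0.0367), and the neutrophil chemokine Cxcl5 by 2.51 in Trail Δmye mice (adjusted p = 0.00031). The call for Vcam1 was lost without any 1 of the 3 control segments and without DDC ROI 009 or 013, and that for Ccl2 in WT mice without CON ROI 001 or DDC ROI 013. Both were also lost after thinning. The complement gene C3, named here after its values were seen, was the other WT gene that rose (2.13, adjusted p = 0.00014). Pigr, the epithelial receptor that carries immunoglobulin A into bile, fell by 1.87 in WT mice (adjusted p = 0.00619), a call lost without CON ROI 003.

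Transcription factors and receptors that act upstream of Lcn2 were called with diet in 3 cases in PanCK+ segments. None of the 17 factors was called in WT mice by edgeR or DESeq2 (2 by limma, and 2 at an unadjusted p under 0.05 in edgeR). In Trail Δmye mice 3 rose, among them Junb, a subunit of AP-1 (2.60, standard error 0.46, adjusted p = 3.47e-05), and Nfkbiz, an NF-kB cofactor needed for induction of Lcn2 (1.66, adjusted p = 0.0168). The call for Nfkbiz was lost without CON ROI 027, 028 or 029, and also with TMM factors, with DESeq2 and after thinning. DESeq2 called 1 of the 17 factors higher in these mice and limma 3. None of the 13 inducing receptors was called with diet in PanCK+ segments of either genotype by edgeR or DESeq2 (1 by limma in WT mice, and 1 in each genotype at an unadjusted p under 0.05). Of the 18 iron-handling genes none was called by edgeR or limma, although 4 were higher in each genotype at an unadjusted p under 0.05 and DESeq2 called 1 in WT mice.

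Of 23 acute phase genes, Cd14, the co-receptor for bacterial lipopolysaccharide, rose by 2.42 (adjusted p = 0.0188) as the only one called by edgeR in WT PanCK+ segments. Without CON ROI 001 or 003 or DDC ROI 013, or after thinning, it was not called. In Trail Δmye mice 6 rose, led by Il1rn, the interleukin 1 receptor antagonist (2.37, adjusted p = 0.0042, all 4 controls at 1 count), and the haemoglobin scavenger haptoglobin (Hp, 1.89, adjusted p = 9.41e-05). The call for Il1rn was lost without CON ROI 029, with DESeq2 and after thinning. DESeq2 called 3 of the 23 higher in each genotype, and limma 4 in WT and 6 in Trail Δmye mice. Of the 10 other lipocalins measured, none rose by edgeR, DESeq2 or limma in either genotype (1 in Trail Δmye mice at an unadjusted p under 0.05). Mup13, a major urinary protein of hepatocytes, fell by 5.22 in WT (adjusted p = 3.38e-21) and by 5.73 in Trail Δmye PanCK+ segments (adjusted p = 3.9e-27). Mup genes are near-identical copies of each other, and the probe may count several.

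**Figure D4:**
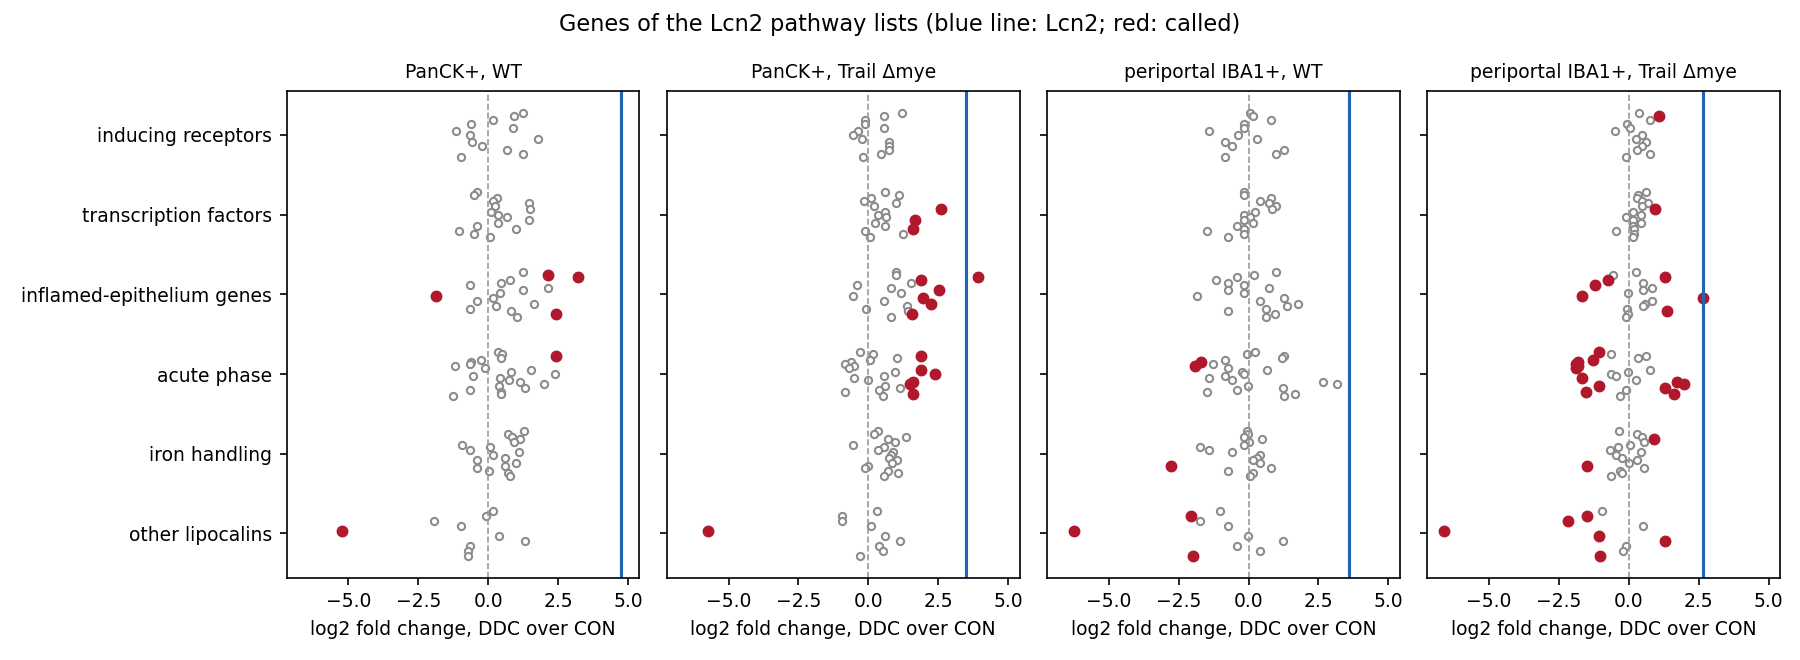
Log2 fold change of DDC over CON for every measured gene of 6 pathway lists, in PanCK+ and periportal IBA1+ segments of both genotypes; red points are genes called at an adjusted p under 0.05, open points were not called, and the blue line is Lcn2. Lcn2 lies at 4.73 and 3.48 in PanCK+ segments, and the red point far to the left among other lipocalins is Mup13.

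In periportal IBA1+ segments more list genes fell than rose with DDC. In WT mice none of the 97 was called higher by edgeR (3 by DESeq2 or by limma, and 5 at an unadjusted p under 0.05) and 6 were called lower, against 0.142% and 1.04% of all genes. In Trail Δmye mice 10 were called higher and 17 lower, against 4.2% and 5.18%. The acute phase list gave 4 higher and 9 lower of 23 in Trail Δmye mice. The metallothioneins Mt2 (1.98, adjusted p = 3.13e-05) and Mt1 (1.74, adjusted p = 7.14e-05), which bind zinc and copper, rose. The hormone of iron balance Hamp fell by 1.89 (adjusted p = 2.02e-05), and the fibrinogen chain Fgb fell by 1.88 (adjusted p = 2.75e-05). In WT mice the fibrinogen chains Fgg and Fga fell by 1.92 and 1.71 (adjusted p = 0.0261 and 0.0242). Without CON ROI 005 or DDC ROI 011 both calls were lost, and the count of 6 fell to 2 or 3. With TMM factors or total counts both calls were lost as well. The 9 hepatocyte markers moved with these acute phase genes, with 6 called lower in WT and all 9 in Trail Δmye segments. The part of hepatocyte RNA in these falls was not tested.

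Of the epithelial genes, 3 rose and 3 fell in Trail Δmye periportal IBA1+ segments. Next to S100a8, the protease inhibitor Slpi rose by 1.36 (adjusted p = 0.0346), while Pigr fell by 1.66 (adjusted p = 7.83e-05) and the chemokine Cxcl10 fell by 1.19 (adjusted p = 0.0252). The call for Cxcl10 was lost without CON ROI 028, and that for Slpi without CON ROI 026, 027 or 029 or DDC ROI 033 or 035. Both were also lost after thinning and with counts of 1 set to 0, and that for Cxcl10 with limma or total counts. Junb rose by 0.96 (adjusted p = 0.0251) and Il10rb, a receptor chain shared by interleukin 10 and interleukin 22, by 1.08 (adjusted p = 0.00997). Both calls were lost without CON ROI 026 or 029 and after thinning. That for Junb was also lost without CON ROI 027 or DDC ROI 032 or 033 and with counts of 1 set to 0. The iron exporter Slc40a1 fell by 2.79 in WT (adjusted p = 0.00115) and by 1.49 in Trail Δmye mice (adjusted p = 6.14e-05). Fth1, the heavy chain of ferritin, rose by 0.90 in the latter (adjusted p = 0.0494), a call lost in 20 of 25 alternatives. Among lipocalins, Mup13 fell by 6.25 and 6.60 in the 2 genotypes (adjusted p = 3.34e-14 and 1.09e-17). Apom, which carries sphingosine phosphate, fell by 2.06 in WT mice (adjusted p = 0.0375, lost without CON ROI 003 or 005 among others), C8g, a complement subunit, fell by 2.18 in Trail Δmye mice (adjusted p = 2.06e-09), and Orm2 rose by 1.31 there (adjusted p = 0.0015). Orm1 and Orm2 are close copies that a probe may not separate.

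Between the DDC-fed genotypes only Mup13 of the 97 was called, lower in Trail Δmye mice in PanCK+ segments (-2.40, adjusted p = 1.23e-06) and in periportal IBA1+ segments (-2.67, adjusted p = 0.0001). The background was 0.152% and 0.019% of all genes. Without ROI 035, 5 of the 97 were called in PanCK+ segments, and 58 rather than 16 of all 10547 genes.

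Mmp9, the gelatinase that Lcn2 binds, was the only 1 of 5 listed receptors and partners among the targets. It held 7.33 ± 3.21 (SD, n = 4) in WT DDC and 8.33 ± 1.62 (SD, n = 5) in Trail Δmye DDC PanCK+ segments, with controls at 4.67 ± 1.01 (SD, n = 3) and 6.17 ± 3.28 (SD, n = 4). It was called in no comparison by edgeR, DESeq2 or limma, and at no unadjusted p under 0.05. The receptors Slc22a17 and Lrp2, Mc4r and the siderophore enzyme Bdh2 were not analysed here.

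Between the 2 segments of a ROI, 18 of the 97 genes were called higher in the PanCK+ segment and 30 lower, against 7.67% and 10.2% of all genes. As for Lcn2, 6 of the 18 epithelial genes were higher, among them Ccl2 (2.23, standard error 0.22, adjusted p = 2.59e-13) and the secreted protease inhibitor Wfdc2 (1.93, adjusted p = 4.61e-14), and Pigr was lower (-0.87, adjusted p = 4.46e-05). Of the 17 factors 8 were higher, led by Jun (1.04, adjusted p = 5.87e-07) and Nfkbiz (0.91, adjusted p = 3.13e-05), and Cebpd, a C/EBP factor, was lower (-0.63, adjusted p = 0.00499). DESeq2 called 7 of these factors higher and limma 2, and neither called any lower. The call for Cebpd was also lost after thinning and with counts of 1 set to 0, and that for Nfkbiz was lost with limma. Of the 13 receptors none was higher by edgeR, DESeq2, limma or an unadjusted p under 0.05, and 4 were lower, including Il6ra (-1.02, adjusted p = 4e-06) and Tnfrsf1b (-1.01, adjusted p = 8.75e-07). DESeq2 called 2 of the receptors lower and limma 1. After thinning the calls for Il6ra and Tnfrsf1b were lost, and that for Tnfrsf1b was also lost with limma.

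Of the 18 iron genes, 9 were lower and 1 was higher in PanCK+ segments. The divalent metal transporter of phagosomes Slc11a1 (-1.56, adjusted p = 1.72e-12) and the haem-degrading enzyme Hmox1 (-1.53, adjusted p = 1.21e-11) differed most, and Bmp6, which induces hepcidin, was higher (0.67, adjusted p = 0.00419). The call for Bmp6 was lost without ROI 036, with DESeq2 or limma, with counts of 1 set to 0 and after thinning. Of the acute phase genes 3 were higher, led by Il1rn (1.36, adjusted p = 2.31e-07) and Cd14 (1.30, adjusted p = 4.23e-07), and 11 lower, led by Serpina3n (-1.74, adjusted p = 2.01e-13) and the complement gene C4b (-1.03, adjusted p = 5.02e-06). The other lipocalins had 5 of 10 lower and none higher by edgeR, DESeq2 or limma (1 at an unadjusted p under 0.05), led by Mup13 (-0.78, adjusted p = 0.000111) and the retinol carrier Rbp4 (-0.66, adjusted p = 0.00153), opposite in sign to Lcn2.

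The genes whose levels followed Lcn2 most closely over the 38 segments included 2 keratins, an actin and a tropomyosin. Among 10471 genes with more than 1 count in at least 19 segments, Pearson's r of log2 Q3-normalized counts was highest for Anxa2 (0.888), a calcium-dependent membrane binder, the tetraspanin Cd9 (0.888), Tagln2 (0.862), an actin binder, the keratin Krt8 (0.850), S100a11 (0.836), the tropomyosin Tpm1 (0.831), Rgs5 (0.829), a regulator of G proteins known from pericytes, Tmem176b (0.821), the actin Actg1 (0.818) and the keratin Krt18 (0.811). The median over all these genes was -0.08. The points share diet groups, depth and the Q3 scaling, and r is a description. Taken on deviations from the 12 group means, r was 0.67 for Cd9 and 0.59 for Krt8 and lay between 0.27 and 0.44 for the other 8. The cholangiocyte markers followed Lcn2 less closely, with r of 0.53 for Krt19, 0.49 for Epcam and 0.65 for Spp1.

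Like Lcn2, Cd9 was highest in PanCK+ segments on DDC, at 74.7 ± 6.91 (SD, n = 4) in WT and 68.6 ± 19.6 (SD, n = 5) in Trail Δmye mice. In periportal IBA1+ segments it reached at most 15.8 on CON and lay between 18.6 and 37.1 on DDC. Krt8 differed from Lcn2 in the parenchyma. It was at 407 ± 55.2 (SD, n = 2) in WT DDC and 141 ± 26.6 (SD, n = 2) in Trail Δmye DDC parenchymal segments, against 92.3 ± 47.0 (SD, n = 4) and 59.7 ± 16.1 (SD, n = 5) in the periportal IBA1+ segments of the same mice. Over the 16 PanCK+ segments alone, the top list shared 5 of these 10 genes and began with Vcam1. On deviations from the group means it shared 1, Cd9.

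**Figure D5:**
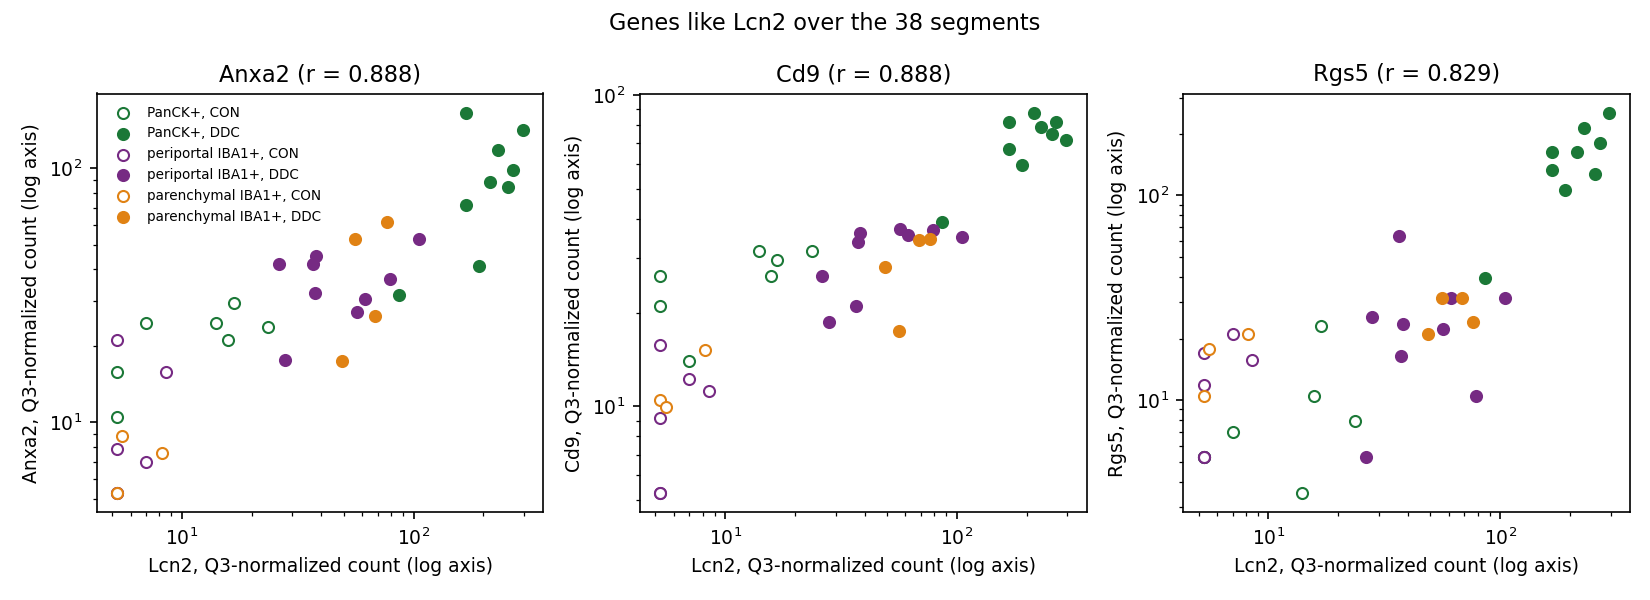
Q3-normalized counts of Anxa2, Cd9 and Rgs5 against that of Lcn2 in the 38 segments, both axes logarithmic, coloured by segment class with open circles for CON and filled for DDC; r is Pearson's correlation of log2 values. All PanCK+ DDC segments but that of ROI 035 lie farthest to the right, at an Lcn2 of 168 or more, and ROI 035 lies at 86.1, below 1 IBA1+ segment at 105.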

How the data were processed

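Segments of formalin-fixed mouse liver were profiled by the authors with the GeoMx mouse Whole Transcriptome Atlas, 18 cycles of PCR and sequencing on a NextSeq2000, and filtered on the limit of quantification. The submitters' processing notes name bcl2fastq and mm10, and no source used here gives the aligner or the handling of duplicate reads. The authors deposited expected counts per target and segment, of which 3 genes held fractions and were rounded in count fits. They also deposited Q3-normalized counts, a signal equal to the counts times 1 factor per segment. No count was below 1, and 27.2% were at 1. The negative probe was kept out of library sizes and tests.

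Contrasts were fitted by quasi-likelihood in edgeR 4.0.16 (R 4.3.3), with upper-quartile factors and 1 coefficient per group within a class, over 10547 genes, unfiltered, and called at a two-sided Benjamini-Hochberg adjusted p under 0.05. Residual degrees of freedom were 12 for PanCK+, 11 for periportal IBA1+, 14 for the comparison of segments with ROI as a block and 17 for location. Standard errors are the log2 fold change over the root of F. Fits were tested on simulated data. Alternatives were TMM factors, total counts, DESeq2 1.42.0, limma 3.58.1 on log2(Q3-normalized count + 1) or + 0.5, filterByExpr, zeros in place of counts of 1, thinning of segments to the lowest total in their class (20319 in periportal IBA1+, 23481 in PanCK+), ROI as a random block, and each segment or ROI left out. Joint limma without the block, and the means without ROI 035, were chosen after seeing the data.

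A shared ROI number marks 1 piece of tissue, which pairs the 2 segments. The correlation of their deviations from group means over 3089 genes averaging 10 counts or more had a median of 0.03, ran from -0.02 to 0.53, and was over 0.1 in 5 of 15 ROIs. No 2 of the 51 pairs of segments within groups held identical counts.

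Lcn2 and all gene lists were chosen with earlier results of these data known. Genes named are Lcn2, the 10 most like it by Pearson's r, the 2 highest and 2 lowest called members of each list in each comparison, all measured partners of Lcn2, and Krt19, Epcam, C1qa, Clec4f, Alb, S100a8, S100a9 and Col1a1. Spp1, Ly6g, Retnlg, Csf3r and C3 were added after values were seen. Promoter sequence and gene coordinates are from RefSeq, GRCm38.p6. Plots were drawn with matplotlib 3.10.9 in Python 3.11.15.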

Additional observations from a re-analysis of the deposited data

Results flagged for a closer look

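Dixon's test was run 27 times, each on 1 measure within a group of 4 to 10 segments or ROIs. It flags about 1 in 20 groups by chance, and 4 values stood apart from the rest of their group. 3 of them belong to ROI 035 of DDC-fed Trail Δmye mice. Its negative probe had a Q3-normalized count of 5.66 in the PanCK+ segment (next highest 2.16) and 5.51 in the IBA1+ segment (next highest 2.62), and the ratio of Lcn2 to the negative probe in the IBA1+ segment was 5.07 (next lowest 22.2). That ratio divides by the flagged probe of the same segment, so it is not an independent flag. The other value was the negative probe of the IBA1+ segment of ROI 013 of DDC-fed WT mice, at 4.03 with the next lowest at 5.46. Before scaling, the probe was at 1.15 counts there, the highest of its group, against 1.04 to 1.05 in the others. In that segment 1 count is worth 3.50 after scaling, against 5.25 in the others, so the value apart is no sign of a lower background. That segment also had the highest Lcn2 of its group, 105. No Lcn2 level and no difference within a ROI stood apart by this test.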

How the results depend on the processing

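Of 309 alternative values of the Lcn2 differences, 299 moved by less than the spread between replicates, and 307 kept their sign. Fits with 1 segment or ROI left out gave 189 of the 299. Many of these dropped a segment outside the contrast, which can hardly move it. The 2 that changed sign rest on WT CON periportal IBA1+ segments at or near a count of 1. With segments thinned to the smallest total of the class, the periportal genotype difference on CON was -1.27 (0.36 as reported) and the difference between the genotypes' diet effects 0.92 (-0.91). Thinning also gave periportal IBA1+ diet differences of 2.42 (WT) and 3.34 (Trail Δmye). With counts of 1 set to 0, the periportal WT diet difference was 9.06, the genotype difference on CON 5.84 and the difference between diet effects -6.40, values that depend on edgeR's prior count. Segment depth and the lack of counts below 1 limit every control level.

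With 1 segment or ROI left out, the PanCK+ diet difference ran from 4.51 to 5.48 in WT and from 3.29 to 3.72 in Trail Δmye mice, the genotype difference from 0.63 to 1.61 on CON and from -0.54 to -0.20 on DDC, and the difference between diet effects from -2.0 to -1.02. Values of 5.48, 1.61 and -2.0 came without WT CON ROI 001. In periportal IBA1+ segments the diet difference ran from 3.14 to 3.82 in WT and from 2.53 to 2.90 in Trail Δmye mice, the genotype difference from 0.13 to 0.45 on CON and from -0.79 to -0.11 on DDC, and the difference between diet effects from -1.15 to -0.48. The PanCK+ over IBA1+ difference ran from 1.81 to 1.94 and was 1.86 with no replicate block (1.89 with it), and the difference by location ran from -0.35 to -0.08.

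Counts of called list genes moved more, and the cause was not tested. In PanCK+ segments of Trail Δmye mice the 16 called for diet became 10 with TMM factors, 8 with DESeq2 and 6 after thinning, and 9 to 22 with 1 segment left out (9 without CON ROI 028 or 029). The 6 called in WT mice became 10 with DESeq2 or with counts of 1 set to 0, 15 and 11 with limma at a pseudocount of 1 and 0.5, 16 with filterByExpr, 3 after thinning, and 14 with ROI as a random replicate block or in the joint fit without it, and 3 to 10 with 1 segment left out (3 without CON ROI 001 or 003 or DDC ROI 013, 10 without Trail Δmye DDC ROI 035). The 1 called for genotype on DDC became 2 with total counts and 5 with filterByExpr or without ROI 035 (1 to 5 with 1 segment left out). In periportal IBA1+ segments the 27 called in Trail Δmye mice became 11 after thinning (21 to 29 with 1 segment left out). The 6 called in WT mice became 2 with TMM factors, 10 with DESeq2, filterByExpr or thinning, 12 and 11 with limma at a pseudocount of 1 and 0.5, and 11 with or without ROI as a random replicate block in the joint fit, and 2 to 8 with 1 segment left out (2 without CON ROI 005, 3 without DDC ROI 011). The 1 called for genotype on DDC became 2 with limma and stayed 1 with each segment left out. Between segments of a ROI the 48 called became 17 after thinning (45 to 50 with 1 ROI left out). Of 51 calls of named list genes, 26 held under every alternative run, 25 were lost under 1 or more, and none changed sign.

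Over all genes the counts ran, across alternatives with all segments, from 50 to 345 for diet in Trail Δmye PanCK+ (221 as reported), 56 to 417 in WT PanCK+ (96), 187 to 1363 in Trail Δmye periportal IBA1+ (989), 75 to 434 in WT periportal IBA1+ (125), 1 to 97 and 1 to 24 for genotype on DDC (16 and 2), and 389 to 2003 between segments of a ROI (1881). Without ROI 035 they were 402 and 58 for diet in Trail Δmye and genotype on DDC in PanCK+ segments. Of the 10 genes most like Lcn2, 1 was shared on deviations from group means, 5 when PanCK+ segments alone were used, and 7 and 8 over the 20 deepest segments and by Spearman's rho.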
